A study of Mus musculus with 6 samples.

Results

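The AP-1 transcription factor family was followed here through 8 genes, namely the FOS genes Fos, Fosb, Fosl1 and Fosl2, the JUN genes Jun, Junb and Jund, and Atf3. They were picked by gene symbol, with earlier results of these data already known. All 8 were found among the 29955 genes of the deposited table and had enough reads to be tested. RNA was sequenced from 3 Rnf40+/+ and 3 Rnf40-/- libraries of mouse embryonic fibroblasts (MEFs) at passage 3, to ask how loss of RNF40 changes gene expression. RNF40 is a ubiquitin ligase subunit needed for monoubiquitination of histone H2B. The Rnf40-/- cells came from embryos with a tamoxifen-inducible Cre recombinase (Rosa26-CreERT2, expressed from a ubiquitous locus) and loxP sites around exons 3 and 4 of Rnf40, and received 250 nM 4-hydroxytamoxifen (4-OHT) for 5 days followed by 3 days without it. Which of these alleles the Rnf40+/+ cells carried, and whether they received 4-OHT before RNA-seq, is not stated in the sources used here, so the effects of the deletion and of the treatment cannot be told apart. The labels do not say that the libraries came from separate embryos, and p values therefore measure the spread between these libraries, which may be technical.

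AP-1 is a dimer of basic leucine zipper proteins that binds DNA at the sequence TGACTCA or close forms of it. FOS proteins bind DNA only when paired with a JUN protein, whereas JUN proteins also pair with each other, and ATF3 pairs with JUN proteins or with itself. In fibroblasts, Fos, Fosb, Jun, Junb and Atf3 are immediate early genes: serum, growth factors or stress induce them within minutes through kinases and promoter-bound factors such as SRF and CREB, and their mRNAs are short-lived, in part through AU-rich elements that hold the pentamer ATTTA.

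The sequences that carry these features are shown for Fos, Junb and Atf3, which were higher in Rnf40-/- MEFs, and for Jun, which was lower. The RefSeq promoter table (GRCm38.p6) held 7 of the 8 genes, all but Fosl1. Each line below gives 100 bases before and 20 bases after the annotated start, with the motifs that were found in capitals. They lie at chr12:85473790-85473909 on the plus strand for Fos, and on the minus strand at chr8:84978729-84978848 for Junb, chr1:191183314-191183433 for Atf3 and chr4:95052203-95052322 for Jun.
Fos: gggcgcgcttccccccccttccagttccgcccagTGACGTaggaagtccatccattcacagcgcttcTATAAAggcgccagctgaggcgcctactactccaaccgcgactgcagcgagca
Junb: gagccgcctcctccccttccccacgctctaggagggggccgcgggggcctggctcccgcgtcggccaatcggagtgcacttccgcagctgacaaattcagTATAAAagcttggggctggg
Atf3: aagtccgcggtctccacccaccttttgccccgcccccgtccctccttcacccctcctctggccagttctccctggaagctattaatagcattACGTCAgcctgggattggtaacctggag
Jun: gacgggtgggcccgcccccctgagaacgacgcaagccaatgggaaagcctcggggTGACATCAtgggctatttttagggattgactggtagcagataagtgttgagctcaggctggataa

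Fos held the cyclic AMP response element core TGACGT 66 bases before its start and TATAAA 33 bases before it. Atf3 held the same core on the opposite strand, 8 bases before the start, and Jun held the AP-1-like site TGACATCA 45 bases before it. In Junb the letters TATAAA began at base 1 after the annotated start, outside the 250 bases that were searched. On both strands of the 250 bases before the start, TGACGT occurred in 6.56%, TGACATCA in 3.02% and TATAAA in 13.0% of 27025 promoters. TGACTCA (4.43% of promoters), TGACGTCA (1.62%; it contains the core TGACGT) and the CArG box bound by SRF (1.40%) were not in the windows of the 7 AP-1 genes. Sequence farther upstream was not searched, so a motif may lie there. The Jund window held 3 CG pairs, against 15 to 24 in the other windows. Whether its annotated start is the one used in these cells was not tested. These matches describe letters in a window and not bound sites.

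ATTTA pentamers were counted in the 3′ untranslated region of the longest coding transcript (GENCODE vM1, mm9). Fos held 4 of them, or 4.91 per kb, more than 92.3% of 18145 coding genes, whose median was 1.20 per kb. Junb followed with 4.14 per kb, Jun with 3.24 and Atf3 with 2.53, and Fosb had the fewest with 0.47 per kb. The 2 overlapping pentamers of Fos shown here in capitals lie at chr12:86818040-86818069 of mm9 on the plus strand, bases 632 to 661 of the untranslated region.
Fos 3′ element: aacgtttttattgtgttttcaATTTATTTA

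The AP-1 genes moved in both directions. Atf3, Junb and Fos were higher in Rnf40-/- than in Rnf40+/+ MEFs, Fosb, Fosl1, Jun and Fosl2 were lower, and Jund did not pass the test. Thus 7 of the 8 genes had an adjusted p under 0.05 by limma with Benjamini-Hochberg adjustment over all 16378 genes tested, 3 of them higher and 4 lower. Of all genes tested, 47.4% were called (23.3% higher, 24.1% lower). The same 7 genes were those whose genotypes did not overlap, 3 with every Rnf40-/- library above every Rnf40+/+ library (27.8% of all genes tested) and 4 with every one below (28.7%), 56.5% in either direction. Without Rnf40+/+ replicate 2, or without Rnf40-/- replicate 2, only 2 were called higher and 2 lower, as given for each gene below. Differences were moderate, since none of the 8 reached the limits used by the study in the main fit. These were a mean above 15, an unadjusted p under 0.05 and a log2 fold change beyond 1 in either direction. They were applied here to the limma fit, whereas the study used DESeq. Atf3 came closest, with a log2 fold change of 0.97, or 0.99 with DESeq2 and 1.02 without Rnf40-/- replicate 1. These limits were passed by 9.95% of genes (4.25% higher, 5.70% lower). The median log2 fold change was -0.18 over the AP-1 genes and -0.0035 over all genes. Levels below are normalized counts, that is, reads of a gene divided by the size factor of the library, and log2 fold changes are on the scale of log2(normalized count + 1), Rnf40-/- against Rnf40+/+.

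The libraries held 17053436 to 26344170 reads on genes in Rnf40+/+ and 18115481 to 20495627 in Rnf40-/- MEFs. Rnf40 itself had a log2 fold change of -1.30 (adjusted p = 4.25e-07, limma with Benjamini-Hochberg adjustment), with no overlap between the genotypes. Of the fibroblast markers 5 of 6 were lower in Rnf40-/-, and their summed level was 620601 to 678423 in Rnf40+/+ and 375417 to 378316 in Rnf40-/- libraries. Of the endothelial markers 3 of 4 tested were higher (summed level 51.0 to 145.7 against 179 to 283), and of the macrophage markers 1 of 7 was higher and 2 were lower (5464 to 9396 against 3421 to 3767). None of 2 epithelial markers tested was called (434 to 779 against 559 to 792). The 4 muscle markers had a summed level of 118 to 437 against 27.1 to 44.9. Of these only Des was tested, and it was lower, with Myod1 at 0 in every library. Single genes carried much of some sums, as Lyz2 (mean 5314 in Rnf40+/+ and 2264 in Rnf40-/-) and Krt19 (502 and 674). Tek alone gave 115 in Rnf40+/+ replicate 1, against 11.2 and 16.0 in replicates 2 and 3. The macrophage markers Csf1r, Cd68, Emr1 and Itgam were not called. The part of these shifts in the AP-1 values was not tested. In whole cultures, fewer cells of a type and less RNA per cell cannot be told apart.

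**Figure D1:**
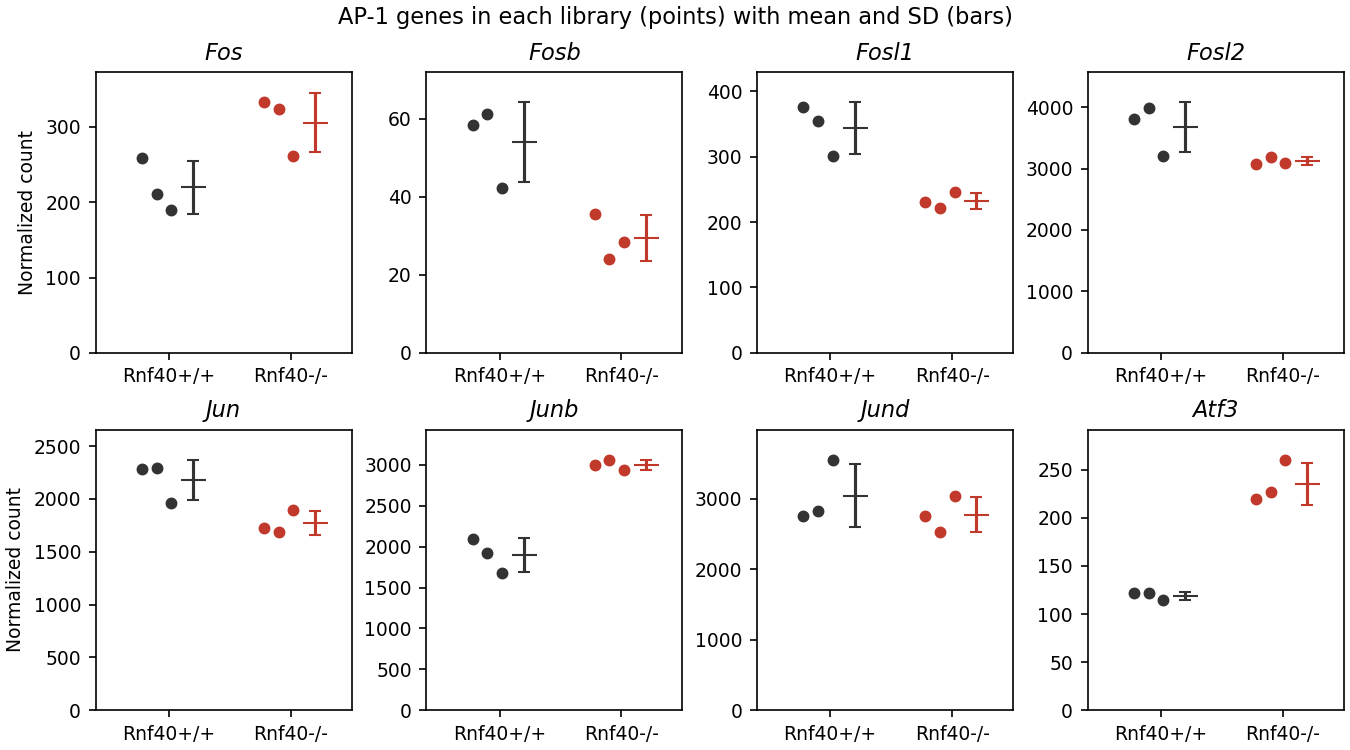
Normalized counts (y axis, linear from 0) of the 8 AP-1 genes in each library, with 3 Rnf40+/+ (dark) and 3 Rnf40-/- (red) points per gene and the mean and SD as bars beside them. Atf3, Junb and Fos lie higher and Fosb, Fosl1, Jun and Fosl2 lower in Rnf40-/-, while the points of Jund overlap.

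Among the FOS genes, Fos was the only one to rise. Fos (ENSMUSG00000021250, plus strand of chr12:86814840-86818223 of mm9, 4 exons) encodes the classical partner of JUN, and its transcript is a standard readout of acute stimulation. Its normalized counts were 258, 211 and 189 in Rnf40+/+ and 332, 324 and 261 in Rnf40-/- libraries. The genotypes did not overlap, although the highest Rnf40+/+ and the lowest Rnf40-/- library nearly met. The mean went from 219 ± 35.1 to 306 ± 39.2 (SD, n = 3 each), and the log2 fold change was 0.48 (SE 0.14, 95% interval 0.17 to 0.79, adjusted p = 0.0149 by limma with Benjamini-Hochberg adjustment). This call was lost without Rnf40+/+ replicate 2 (0.46, adjusted p = 0.0527 by limma), Rnf40-/- replicate 1 (0.41, 0.0709) or Rnf40-/- replicate 2 (0.43, 0.0642).

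Fosb (ENSMUSG00000003545, minus strand of chr7:19888070-19895394, 4 exons) is an inducible FOS gene known for its long-lived shorter splice form. The table holds 1 value per gene, so the 2 forms were not separated. It had the lowest level of the family, with 23 to 60 reads per library. The libraries gave 58.5, 61.2 and 42.3 normalized counts in Rnf40+/+ and 35.7, 24.0 and 28.3 in Rnf40-/- MEFs, with no overlap. The mean fell to 54.3% of the Rnf40+/+ level, from 54.0 ± 10.2 to 29.3 ± 5.91 (SD, n = 3 each), with a log2 fold change of -0.86 (SE 0.26, 95% interval -1.43 to -0.29, adjusted p = 0.0169 by limma with Benjamini-Hochberg adjustment). Fos and Fosb, both immediate early genes, thus moved in opposite directions. The Fosb call was lost without Rnf40+/+ replicate 2 (-0.76, adjusted p = 0.0698 by limma) or Rnf40-/- replicate 2 (-0.73, 0.0648).

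Fosl1 (ENSMUSG00000024912, plus strand of chr19:5447703-5455945, 4 exons) encodes FRA-1, a FOS protein associated with proliferating and migrating cells that lacks the transactivation domain of FOS. Its normalized counts were 376, 355 and 300.3 in Rnf40+/+ and 230.4, 221 and 245 in Rnf40-/- libraries. Every Rnf40-/- library was below every Rnf40+/+ library, by a gap wider than the range within Rnf40-/-. The mean was 344 ± 39.2 against 232 ± 12.2 (SD, n = 3 each), and the log2 fold change -0.56 (SE 0.12, 95% interval -0.81 to -0.31, adjusted p = 0.00185 by limma with Benjamini-Hochberg adjustment). Exons of Fosl1 overlap those of Ccdc85b on the opposite strand, and Ccdc85b was lower as well (log2 fold change -0.80, adjusted p = 0.000982 by limma with Benjamini-Hochberg adjustment). The library kit keeps strand, but whether the counting used it is not given in the sources used here, so the Fosl1 value is uncertain to that extent.

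Fosl2 (ENSMUSG00000029135, plus strand of chr5:32438845-32460204, 4 exons) encodes FRA-2, the other FOS protein without that domain, and had the most reads of the FOS genes. The libraries gave 3810, 3988 and 3209 normalized counts in Rnf40+/+ and 3081, 3188 and 3093 in Rnf40-/- MEFs. The genotypes did not overlap, but Rnf40+/+ replicate 3 lay close to the Rnf40-/- libraries. The mean was 3669 ± 408 against 3121 ± 58.6 (SD, n = 3 each), and the log2 fold change was -0.23 (SE 0.08, 95% interval -0.40 to -0.05, adjusted p = 0.0341 by limma with Benjamini-Hochberg adjustment). The call held without Rnf40+/+ replicate 3 (-0.32, adjusted p = 0.000838 by limma) and was lost without any one of the other libraries (-0.24 to -0.16, adjusted p from 0.0717 to 0.129).

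Of the JUN genes, which have 1 exon and no intron each, Junb rose and Jun fell. Junb (ENSMUSG00000052837, minus strand of chr8:87500811-87502617) encodes a JUN protein with weaker transactivation than JUN that can limit its activity in heterodimers. Its normalized counts were 2095, 1924 and 1675 in Rnf40+/+ and 2999.9, 3065 and 2935 in Rnf40-/- libraries. The genotypes were far apart, and the Rnf40-/- libraries lay close together. The mean was 158% of that in Rnf40+/+ (1898 ± 211 against 2999.9 ± 65.3, SD, n = 3 each), and the log2 fold change was 0.67 (SE 0.08, 95% interval 0.49 to 0.84, adjusted p = 3.6e-05 by limma with Benjamini-Hochberg adjustment).

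Jun (ENSMUSG00000052684, minus strand of chr4:94715725-94718913) encodes c-JUN, the JUN protein activated by the JNK kinases, which stimulates its own promoter. Jun had 2288, 2295 and 1958 normalized counts in Rnf40+/+ and 1728, 1683 and 1898 in Rnf40-/- libraries. They did not overlap, with a narrow gap between Rnf40+/+ replicate 3 and Rnf40-/- replicate 3. The mean was 2181 ± 193 against 1769.9 ± 113 (SD, n = 3 each), and the log2 fold change -0.30 (SE 0.08, 95% interval -0.47 to -0.12, adjusted p = 0.00859 by limma with Benjamini-Hochberg adjustment). An antisense transcript, BC042782, overlaps the exon of Jun, and its mean level was 0.40 in Rnf40+/+ and 1.72 in Rnf40-/- MEFs. Since it is not known whether counting used strand, this low level does not tell whether antisense reads were counted for Jun.

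Jund (ENSMUSG00000071076, plus strand of chr8:73221638-73224515) encodes the JUN protein that is usually present in resting cells and less dependent on stimulation. Its normalized counts were 2752, 2834 and 3558 in Rnf40+/+ and 2755, 2534 and 3038 in Rnf40-/- libraries, and the genotypes overlapped. The deepest library, Rnf40+/+ replicate 3, had the highest value. The log2 fold change was -0.13 (SE 0.10, 95% interval -0.35 to 0.09, adjusted p = 0.311 by limma with Benjamini-Hochberg adjustment), and without that library -0.01. A fall to the lower end of this interval is not distinguishable from no difference here. The protein-coding gene Gm11175 overlaps its exon on the opposite strand, and no level of it is given here. The limit on strand stated for Fosl1 applies to Jund as well.

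Atf3 (ENSMUSG00000026628, minus strand of chr1:192994175-193007219, 4 exons) encodes a stress-induced partner of the JUN proteins that can repress transcription as a homodimer. Atf3 had 122, 121 and 114 normalized counts in Rnf40+/+ and 219, 226 and 261 in Rnf40-/- libraries. The Rnf40+/+ libraries were almost equal and all Rnf40-/- libraries were well above them. At 198% of the Rnf40+/+ mean (119 ± 4.27 against 235 ± 22.1, SD, n = 3 each), Atf3 had the highest log2 fold change of the 8 genes, 0.97 (SE 0.13, 95% interval 0.69 to 1.26, adjusted p = 7.7e-05 by limma with Benjamini-Hochberg adjustment).

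**Figure D2:**
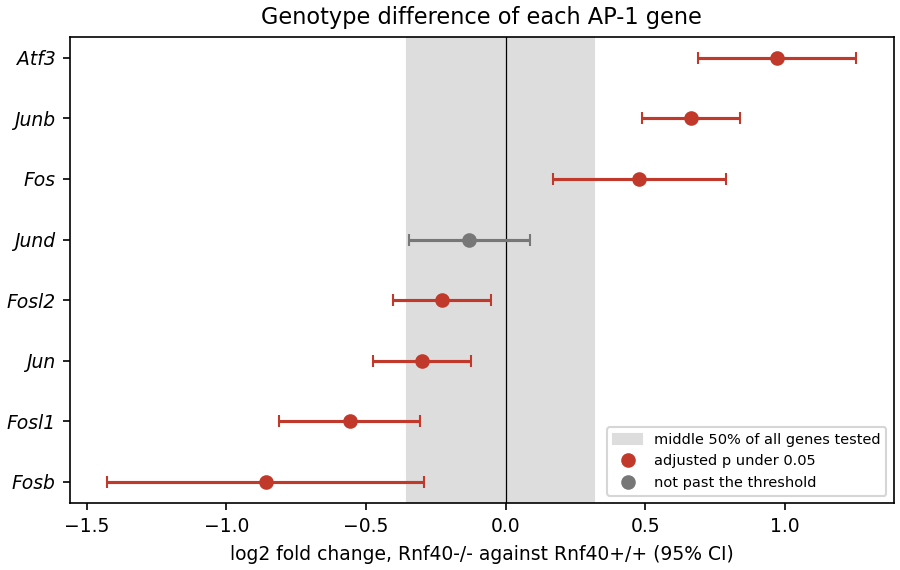
Log2 fold change of each AP-1 gene, Rnf40-/- against Rnf40+/+ (x axis), with its 95% confidence interval from limma; red points have an adjusted p under 0.05 and the grey band holds the middle 50% of all genes tested (-0.35 to 0.32). Atf3, Junb and Fos lie above the band, Fosl1 and Fosb below it, and Fosl2, Jun and Jund within it.

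Set against the 16378 genes tested, the absolute log2 fold change of Atf3 was above that of 87.6% of genes, that of Fosb above 84.7% and that of Junb above 77.0%. The values of Jun (45.5%), Fosl2 (36.0%) and Jund (21.6%) were below the middle of the ranking. Jun and Fosl2 were thus called while differing less between genotypes than most genes did.

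Since dimers form between FOS and JUN proteins, the mRNA composition of each family was described per length (normalized count per kb of transcript, as a percent of the family). The share of Junb in the JUN family went from 37.6% ± 3.84 in Rnf40+/+ to 52.3% ± 2.54 in Rnf40-/- MEFs (SD, n = 3 each), a difference of 14.7 percentage points. Jun went from 24.5% ± 2.08 to 17.4% ± 0.64 and Jund from 37.9% ± 5.76 to 30.3% ± 1.94. The difference of Jund, -7.64 percentage points, was -4.35 without Rnf40+/+ replicate 3. Per kb of transcript, Junb therefore made up the largest part of the JUN family in every Rnf40-/- library. It also did so in Rnf40+/+ replicates 1 and 2 but not in replicate 3. Per kb of coding sequence, Junb instead had the smallest mean share in Rnf40+/+ MEFs, 26.3% against 42.6% for Jund and 31.1% for Jun. In Rnf40-/- MEFs it then had the largest, 39.4% against 36.7% for Jund and 23.9% for Jun.

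In the FOS family Fosl2 held nearly the same share in both genotypes, 66.2% ± 1.64 in Rnf40+/+ and 64.9% ± 1.18 in Rnf40-/- (SD, n = 3 each). Its difference of -1.36 percentage points was -0.60 if replicate 2 of Rnf40+/+ was omitted, -0.69 if replicate 1 of Rnf40-/- was, and -2.23 if replicate 1 of Rnf40+/+ was. The share of Fos went from 11.0% ± 1.09 to 17.6% ± 1.95, that of Fosl1 from 21.3% ± 0.58 to 16.6% ± 1.21 and that of Fosb from 1.51% ± 0.13 to 0.95% ± 0.19. When coding length was used in place of transcript length, the difference of Fos was 2.74 instead of 6.62 percentage points and that of Fosl1 -1.98 instead of -4.70. These shares describe mRNA and were not tested.

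**Figure D3:**
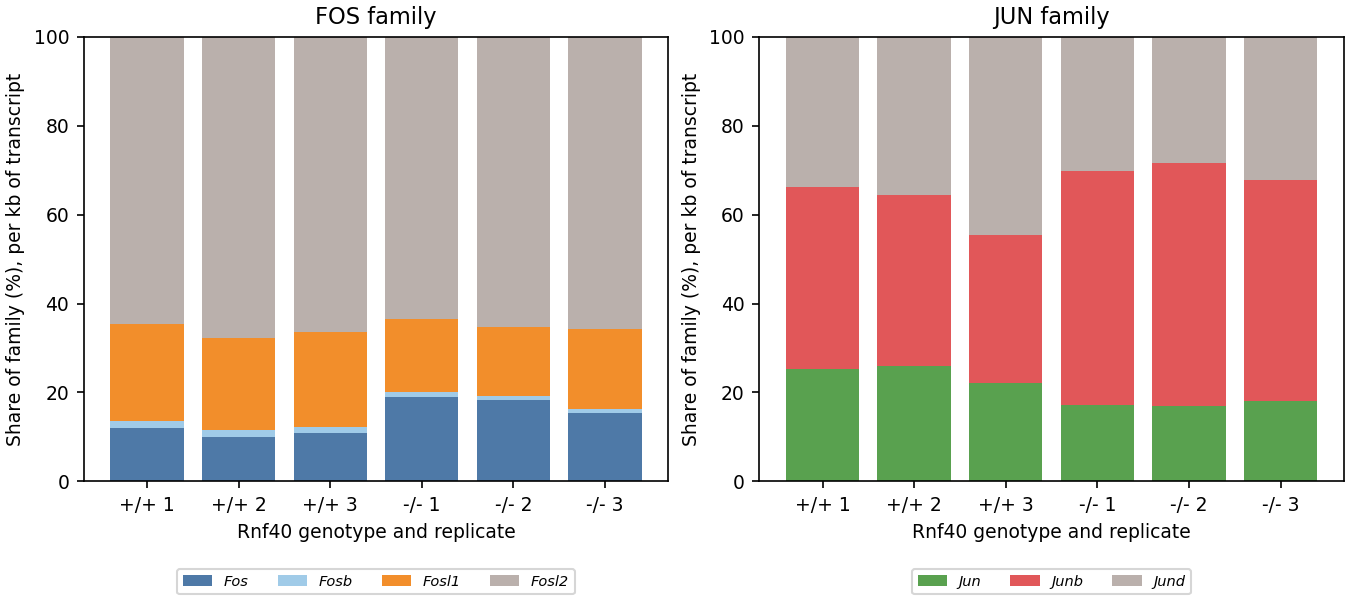
Share of each gene in the FOS family (left) and the JUN family (right), as a percent of the family's summed level per kb of transcript (y axis) in each of the 6 libraries (x axis, Rnf40 genotype and replicate). Junb takes 49.6% to 54.6% of the JUN family in Rnf40-/- and 33.4% to 40.9% in Rnf40+/+ libraries, and Fosl2 takes most of the FOS family in all 6.

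The summed level per kb of transcript of the JUN family was 2833, 2769 and 2778 in Rnf40+/+ and 3159, 3105 and 3275 in Rnf40-/- libraries, and that of the FOS family was 1009, 1006 and 825 against 828, 834 and 803. Per kb of transcript the JUN sums did not overlap, and the Rnf40-/- mean was 113.8% of the Rnf40+/+ mean. Per kb of coding sequence it was 105.6%. The FOS sums per kb of transcript overlapped through Rnf40+/+ replicate 3, and the Rnf40-/- mean was 86.8% of the Rnf40+/+ mean. Per kb of coding sequence it was 85.4%. On that scale the FOS sums did not overlap, but nearly met (3844 in Rnf40+/+ replicate 3, 3826 in Rnf40-/- replicate 2).

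Per kb of transcript, the level in Rnf40+/+ MEFs was highest for Jund (1059 ± 154, SD, n = 3) and Junb (1050.4 ± 117), whose libraries overlapped. They were followed by Jun (684 ± 60.4) and Fosl2 (627 ± 69.7), which also overlapped, and then, each below the range of the one before, by Fosl1 (201 ± 22.9), Fos (104 ± 16.7), Atf3 (60.0 ± 2.15) and Fosb (14.4 ± 2.72). In Rnf40-/- MEFs Junb alone led (1660.1 ± 36.1), above Jund (965 ± 87.9). Jun (555 ± 35.5) and Fosl2 (533 ± 10.0) again overlapped. The level of Fos (145 ± 18.6) overlapped that of Fosl1 (136 ± 7.17), which in turn overlapped Atf3 (119 ± 11.1), and Fosb stayed lowest (7.82 ± 1.57). Per kb of coding sequence Fosl2 ranked first in both genotypes, since most of its transcript is untranslated. On that scale Junb ranked 4 in Rnf40+/+ and 2 in Rnf40-/- MEFs.

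The genes around AP-1 were described by lists of general knowledge, each read against the 47.4% of all genes called. Of 9 tested dimer partners (of 11 listed), 3 were higher and none was lower, with a median log2 fold change of 0.16. The 3, named after their values were seen, were Mafk (0.91) and Maff (0.40), small MAF proteins without a transactivation domain, and Atf2 (0.49), a JUN partner phosphorylated by stress kinases. Batf2, of the leukocyte-associated BATF group and likewise picked after its value was seen, had the second highest value of the list (0.60) but was not past the threshold (adjusted p = 0.147 by limma with Benjamini-Hochberg adjustment).

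Of 18 upstream kinases and factors, 2 were higher and 6 lower, with a median of 0.10. Srf (-0.58), which binds the serum response elements of Fos and Egr1, and Elk1 (-0.47), its ternary complex partner, were among those lower, as were the ERK kinase Mapk3 (-0.29), Mapk7 (-0.32), Map2k2 (-0.37) and Rps6ka3 (-0.53). The JNK kinase Mapk10 was among those higher (0.38, adjusted p = 0.0497 by limma with Benjamini-Hochberg adjustment). These genes were named after their values were seen, and without Rnf40-/- replicate 2 the list had 5 genes past the threshold.

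Of 10 genes of mRNA decay and protein turnover, 1 was called. It was Zfp36, named after its value was seen, which encodes tristetraprolin, a protein that binds AU-rich elements such as that of Fos and promotes decay of the mRNA. Its normalized counts were 1009, 978 and 853 in Rnf40+/+ and 584, 488 and 618 in Rnf40-/- libraries, with no overlap (log2 fold change -0.75, SE 0.10, adjusted p = 9.3e-05 by limma with Benjamini-Hochberg adjustment). Its relatives Zfp36l1 (0.06) and Zfp36l2 (0.04), picked in the same way, did not pass the test. The count of the list is unsteady, with up to 4 genes called under other tests, filters and scalings, 4 without Rnf40+/+ replicate 1 and 3 without replicate 2.

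Among 20 genes known as AP-1 targets, 6 were higher and 11 lower, with a median of -0.42. Secreted proteases moved in both directions. Mmp13, a collagenase, went from 59.7, 67.3 and 169 in Rnf40+/+ to 220.2, 216 and 313 in Rnf40-/- libraries (log2 fold change 1.47, adjusted p = 0.0024 by limma with Benjamini-Hochberg adjustment). Mmp10, stromelysin-2, went from a mean of 93.8 ± 5.73 to 240.1 ± 6.01 (SD, n = 3 each, log2 fold change 1.35). The gelatinase Mmp9 went from 139.7, 56.1 and 72.7 to 27.5, 15.7 and 5.67 (-2.52, adjusted p = 0.00111 by limma with Benjamini-Hochberg adjustment). No genotype overlap was seen for any of the 3, but the spread of Mmp9 and Mmp13 within a genotype was wide.

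Of the other targets with an absolute log2 fold change above 1, Areg, an EGF receptor ligand, was higher (1.68), and Timp1 (-1.17), an inhibitor of matrix metalloproteinases, and Il1rl1 (-1.10), the receptor of interleukin-33, were lower. Closer to that limit, and picked after their values were seen, the cell cycle gene Ccnd1 (-0.71) was lower and the chemokine gene Ccl2 (0.85) higher. By the limits of the study 6 of the 20 passed. Mmp9 is also expressed by macrophages, 2 of whose markers (Lyz2 and Tyrobp) were lower and 1 (Ptprc) higher, and the part of this in the target values was not tested.

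**Figure D4:**
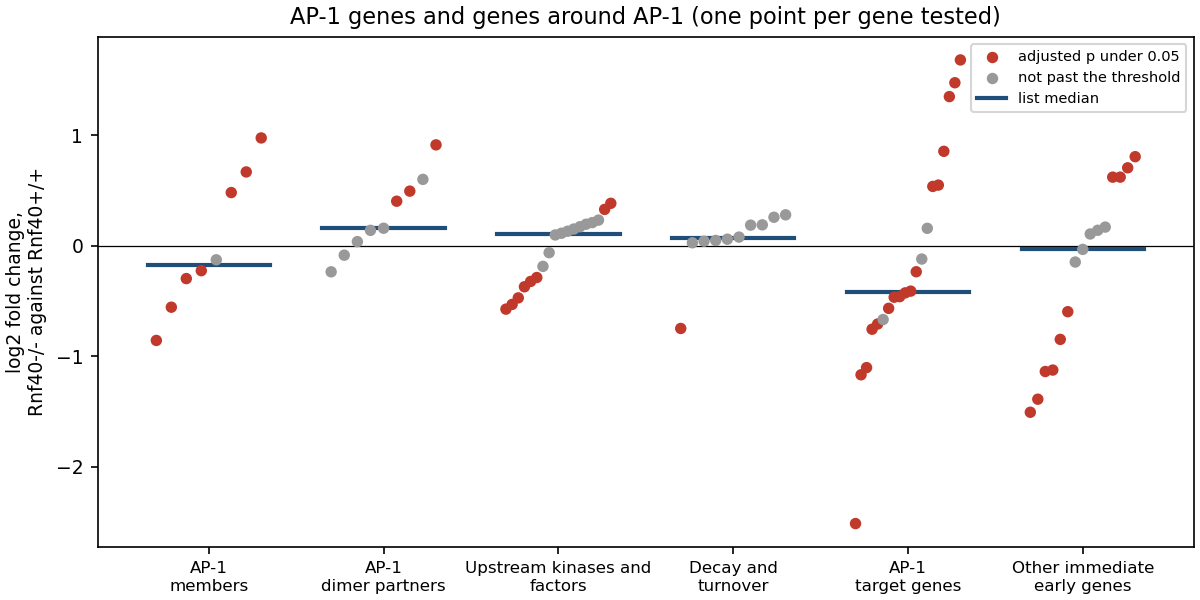
Log2 fold change, Rnf40-/- against Rnf40+/+ (y axis), of every tested gene in the AP-1 family and in 5 lists of genes around it (x axis), with red points for an adjusted p under 0.05 by limma and blue bars for the list medians. The target genes range from -2.52 to 1.68 and the other immediate early genes from -1.51 to 0.80, both wider than the AP-1 genes (-0.86 to 0.97).

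Other immediate early genes, which share stimuli and upstream kinases with Fos and Junb, also split. Of 15 tested, 4 were higher and 6 lower, with a median of -0.03. The zinc finger genes Egr3 (-1.51), Egr2 (-1.39) and Egr1 (-1.14) and the nuclear receptor gene Nr4a1 (-1.13) were lower. Egr1 went from 3067, 2475 and 2028 in Rnf40+/+ to 1226, 1244 and 942 in Rnf40-/- libraries, with no overlap. In contrast Dusp1 (0.80), a phosphatase of MAP kinases, Btg2 (0.70), Ier3 (0.62) and Myc (0.62), named after their values were seen, were higher. Egr1, Egr2, Egr3, Nr4a1 and Fosb were thus lower in the same libraries in which Fos, Junb and Atf3 were higher.

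The genes whose levels followed those of Fos, Fosl1 and Jun most closely were sought among 11548 genes with a mean of at least 100, by Pearson's r of log2(normalized count + 1) over the 6 libraries, as a description. For Fos they were Tnpo1, Hmbox1 and 2410127L17Rik (r = 0.99 each), for Fosl1 Actn4, Bcl2l1 and Hmga1 (r = 1.00 each), and for Jun Vim and S100a4 (r = 0.99 each) and Tpm3 (r = 0.99). These libraries form 2 genotypes, so such an r rests in part on the genotype difference, and all genes of a library share its depth and size factor. With the genotype means removed, other genes came first, namely Nrg1, Brpf3 and Ankrd17 for Fos, Elac2, Prdm4 and Slc14a1 for Fosl1, and Psma4, Tnfrsf23 and Ndufv2 for Jun, with r of at least 0.99. Such a gene may differ from its member between genotypes. Psma4 (log2 fold change 0.37) and Ndufv2 (0.63) went against Jun, whereas Ankrd17 (0.38) went with Fos. Taken as the top of 11548 genes over 6 libraries, r by either measure can come out this high by selection alone.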

How the data were processed

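RNA from 3 Rnf40+/+ and 3 Rnf40-/- MEF libraries was sequenced after library preparation with a directional kit. The authors aligned reads against the mm9 mouse transcriptome and deposited a signal per gene, normalized by them with DESeq, in which reads are divided by a size factor particular to the library. The submitters' processing notes name Bowtie2 (version 2.1.0) and DESeq (version 1.14.0). The counting tool, and whether it used strand, are not given in the sources used here. The reads were recovered from these values, since 100% of those above 0 came to a whole number of reads (within 0.001) in all libraries. A level of 3 reads, the limit of detection, corresponded to normalized counts of 2.40 to 3.58. No library was a duplicate of another of its genotype (chi-square of the reads, divided by the number of genes, between 5.33 and 28.8 for such pairs, where counting error alone gives about 1). Rnf40+/+ replicate 3, the deepest library, stood apart, with 28.8 against replicate 1 and 25.9 against replicate 2. The pair of Rnf40+/+ replicates 1 and 2 gave 8.35.

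The members and lists were chosen with earlier results of these data known. Genotypes were compared with limma-trend (limma version 3.58.1) fitted to log2(normalized count + 1) without further covariates, and with Benjamini-Hochberg adjustment over the 16378 genes kept by filterByExpr of edgeR (version 4.0.16). The design named this test for normalized values and the one of edgeR for counts. Fold changes of genes with few reads come out too small because of the added 1. Exact permutation tests were not used, as the smallest p they allow with 3 libraries per genotype is 0.1. Genes named are every member, then, from each list of genes around AP-1, those called by limma whose log2 fold change exceeded 1 in size (at most 6), and the 3 genes most like Fos, Fosl1 and Jun by either measure. Rnf40, genes that overlap a member and some cell type markers are named besides, and other genes are said to have been picked after their values were seen. Alternatives were TMM and upper-quartile normalization, the quasi-likelihood test of edgeR and the Wald test of DESeq2 (version 1.42.0) on the recovered reads, no filter, at least 10 reads in every library, pseudocounts of 0.1 and 10, a replicate block, the limits of the study and each library left out. Deviations of same-numbered libraries of the 2 genotypes had correlations of 0.012 to 0.021, which with 3 libraries per genotype cannot exclude a pairing.

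Positions, lengths and untranslated regions are from GENCODE vM1 (mm9), and promoters from RefSeq (GRCm38.p6). The motifs TGACGT, TGACATCA and ATTTA were chosen after values were seen. The values of 1 gene of the lists are not reported here. The comparison of protein sequences that the design listed was not run. The calculations used R (version 4.3.3) and Python (version 3.11.15).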

Additional observations from a re-analysis of the deposited data

How the results depend on the processing

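Every AP-1 gene kept its direction in all 15 alternatives, and Atf3, Junb, Fosl1 and Jun also kept an adjusted p under 0.05 in all 15, Fosb in 13, Fos in 12 and Fosl2 in 10. The lost calls came from leaving out 1 library, and their causes were not tested. Over the 6 fits that omit 1 library, the log2 fold change was 0.38 to 0.60 for Fos, -1.02 to -0.73 for Fosb and -0.32 to -0.16 for Fosl2, the number of AP-1 genes called lower was 2 to 4 (2 without Rnf40+/+ replicate 2 or Rnf40-/- replicate 2), that of upstream genes called was 5 to 10 (5 without Rnf40-/- replicate 2), and that of decay genes 1 to 4 (4 without Rnf40+/+ replicate 1 and 3 without replicate 2). Decay and turnover genes called, 1 in the main test, were 4 with TMM normalization, 3 with edgeR, and 2 with DESeq2, with at least 10 reads in every library or with a pseudocount of 10. By the limits of the study, which need a fold change beyond 1 on the log2 scale, 0 AP-1 genes were higher and 0 lower, 0 dimer partners, 0 upstream and 0 decay genes were called, and 6 targets and 4 other immediate early genes. With coding length, the difference in share was 2.74 percentage points for Fos and -1.98 for Fosl1.

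The labels give the genotypes the same replicate numbers but do not say whether equal numbers mark pairs. The correlations of deviations were between 0.012 and 0.021 for equal numbers, and no library correlated best with its own number. With 3 libraries per genotype such correlations cannot exclude a pairing. With the replicate block, 4021 genes were higher and 4196 lower, against 3809 and 3955 without it. The block gave 5 dimer partners and 4 decay genes, and the AP-1 genes called stayed at 3 higher and 4 lower.

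Fosb rests on 23 to 60 reads per library, so that its fold change is the least precise of the 8. The design holds 3 libraries per genotype, 1 time point and no sample that separates 4-OHT from the deletion. RNA levels give neither protein nor dimers, and reads cannot tell synthesis from decay of an mRNA.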
